A study of Mus musculus with 4 samples.

Results

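Some transcription start clusters cannot be given to 1 gene. In the deposited table of capped RNA starts from mouse skin, 1287 of 67319 distinct clusters were listed under 2 or more gene identifiers. A cluster was taken when its identifier stood on 2 or more entries with different gene identifiers. Another 399 clusters met that condition and were left out because a listed symbol marked a named microRNA (Mir and a digit) or a named small nucleolar or Cajal body RNA (Snora, Snord, Scarna). The 1287 clusters gave 2833 of the 69391 entries and named 1162 of 17849 genes, and no level was used to choose them.

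Lesional facial skin of C57BL/6 mice at postnatal day 28 gave 4 libraries, made by cap analysis of gene expression (CAGE), which sequences a tag at the capped 5′ end of each RNA. All 4 carried the label Nectin-cre(+);Ikk2FL/FL;Postn-/-. They therefore share the facial atopic dermatitis model (FADS), in which a Cre transgene removes Ikk2 (gene Ikbkb), and the loss of Postn, the gene of the matrix protein periostin. The Cre is named only by its label, and the sources used here do not say in which cells it acts. The labels do not say whether the skins came from 4 animals; libraries 1 and 2, and libraries 3 and 4, share the first part of their sample code. A p-value here reflects the variation among these 4 samples, possibly technical alone, and with 1 group no comparison of genotypes was possible.

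Summed over all entries, total tags were between 17630119 and 18823630 per library. A cluster listed under several genes counts there once per entry, and distinct clusters alone held 16492915 to 17691558 tags. Values are tags scaled to a common library total over entries (CPM), where 1 tag was worth between 0.0531 and 0.0567 CPM. A CAGE level counts starts and does not depend on transcript length. Postn held 0.319 to 0.825 CPM in the 4 libraries. The epidermal keratins Krt1 (1937 to 3313 CPM) and Krt14 (593 to 992 CPM) were present in every library. For 22 genes of glands and secreted proteins, the summed level was 60.1, 48993, 87.1 and 11488 CPM in libraries 1 to 4. That sum does not describe every gene of the list. Libraries 2 and 4 were both above libraries 1 and 3 in 13 of the 17 genes with tags, by more than 10-fold in 9. These counts describe the list only. Bpifa2 (4.18, 16004, 0.113 and 4.46 CPM) and Smr3a (0.825, 3484, 0 and 0.557 CPM) were high in library 2 alone. Bpifa2 still counts among the 13, since its level in library 4 was slightly above that in library 1. Krt7 and Krt19 were highest in library 3. Esp1, Esp8, Dcpp1, Dcpp2 and Dcpp3 had no entry under these symbols, which is not a measured level of 0. Hair follicle genes summed to 21902, 19946, 8280 and 9559 CPM in the same order. Of the 27 genes on that list, Krt85 likewise had no entry.

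A promoter is the stretch of DNA around a transcription start, and the start is defined by where the RNA polymerase begins, not by which gene the RNA will serve. Neighbouring genes on 1 strand can share a start when their transcripts overlap, when 1 RNA carries 2 reading frames, or when a small RNA is cut from an intron of a host transcript. An annotation then lists several genes at 1 start, and a tag, which holds only the first bases of an RNA, can fit all of them.

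The following start regions carry the results below: a hair gene and a gland gene whose clusters passed the test of spread, a collagen, a histone H2B gene, and 3 pairs of coding genes that share a start. Each runs from 150 bases before to 29 bases after the RefSeq start base (GRCm38.p6), 5′ to 3′ on the strand of the gene, and capitals mark bases that lie inside the cluster.
Krtap22-2/Gm49689 (chr16:89010730-89010909, minus strand): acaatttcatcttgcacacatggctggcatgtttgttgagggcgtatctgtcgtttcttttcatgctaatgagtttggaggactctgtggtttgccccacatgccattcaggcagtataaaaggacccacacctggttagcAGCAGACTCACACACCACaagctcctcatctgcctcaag
Gm44501/Esp6 (chr17:40561357-40561536, plus strand): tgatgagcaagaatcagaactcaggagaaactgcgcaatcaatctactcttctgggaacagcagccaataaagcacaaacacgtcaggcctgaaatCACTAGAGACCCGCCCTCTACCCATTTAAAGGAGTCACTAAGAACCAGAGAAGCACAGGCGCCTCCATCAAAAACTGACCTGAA
Col3a1/Gm47302 (chr1:45311388-45311567, plus strand): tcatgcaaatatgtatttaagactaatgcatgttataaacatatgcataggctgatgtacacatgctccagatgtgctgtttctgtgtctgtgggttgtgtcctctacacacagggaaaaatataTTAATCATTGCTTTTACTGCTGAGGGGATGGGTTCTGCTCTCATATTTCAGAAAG
H2bc12/Gm44390 (chr13:22035671-22035850, plus strand): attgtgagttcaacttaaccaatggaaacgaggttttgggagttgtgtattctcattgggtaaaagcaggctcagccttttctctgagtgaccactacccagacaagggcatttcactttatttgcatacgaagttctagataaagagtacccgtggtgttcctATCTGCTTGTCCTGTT
Trim17/H2aw (chr11:58954535-58954714, plus strand): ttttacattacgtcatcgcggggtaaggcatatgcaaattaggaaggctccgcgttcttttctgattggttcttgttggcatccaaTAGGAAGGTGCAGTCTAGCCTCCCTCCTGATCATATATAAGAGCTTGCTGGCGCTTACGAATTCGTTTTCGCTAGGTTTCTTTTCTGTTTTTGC
Epo/Gnb2 (chr5:137533277-137533456, minus strand): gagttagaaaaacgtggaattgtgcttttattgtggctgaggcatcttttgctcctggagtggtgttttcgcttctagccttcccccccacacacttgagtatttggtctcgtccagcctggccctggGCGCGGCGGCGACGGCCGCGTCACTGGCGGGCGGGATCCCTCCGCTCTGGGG
Rnase4/Ang (chr14:51090927-51091106, plus strand): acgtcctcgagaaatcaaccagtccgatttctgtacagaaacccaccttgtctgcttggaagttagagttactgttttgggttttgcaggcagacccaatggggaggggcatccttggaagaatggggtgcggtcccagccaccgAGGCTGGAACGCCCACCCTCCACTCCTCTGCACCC

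Positions were compared with GENCODE M21 on GRCm38, the build that the coordinates fit, with the edges of a cluster uncertain by 1 bp. The listing followed distance. Of 2814 entries with an annotated gene, 2813 had a start of their own gene at most 1000 bp away, and all 2814 were on its strand. Conversely, there were 2822 combinations of such a cluster and a gene with a start within 1000 bp on its strand. Of these combinations, 2813 were listed. Being listed therefore says that a start lies within 1000 bp and not that the cluster is that gene's start. Only 1260 entries (44.8%) lay within 100 bp of a start of their gene, and 724 spanned one.

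Clusters were of 3 kinds by this distance. In 356 clusters (27.7%), annotated starts of 2 or more listed genes lay within 100 bp, so the genes share a start region. In 540 (42.0%), the cluster lay at a start of 1 listed gene, and no other listed gene had an annotated start within 100 bp. In 391 clusters (30.4%), no listed gene had an annotated start within 100 bp. The latter kinds include 19 clusters with a gene not found in the annotation, whose start could not be placed. The clusters at 2 or more starts held a mean of 14465 ± 1026 CPM together (SD, n = 4), those at 1 start 21692 ± 576 CPM, and those at no start 1047 ± 23.3 CPM. Clusters away from any annotated start of a listed gene were thus 30.4% in number and 2.81% in tags.

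Most clusters (1150) named 2 genes; 87 named 3 genes, 24 named 4, and 26 named 5 to 8. By the extents of the genes, 482 clusters had 1 gene nested in the other, 462 had genes that overlapped in part, and 187 had genes that did not overlap; 137 named more than 2 genes and 19 had a gene not found in the annotation. Of the entries with annotated genes, 56.7% were coding genes, 14.8% small RNAs, 14.1% long noncoding RNAs and 9.77% pseudogenes. Among clusters listed under 1 gene these shares were 92.0%, 0.523%, 4.92% and 2.55%.

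The clusters held 3.99%, 3.77%, 4.05% and 4.07% of the tags of all distinct clusters in libraries 1 to 4 (mean 3.97 ± 0.136%, SD, n = 4). No tag was found in 14 of them, 867 had at least 3 tags in every library, 664 reached 1 CPM on average, 331 reached 10 CPM and 61 reached 100 CPM. The median cluster had 1.10, 1.01, 1.19 and 1.23 CPM in libraries 1 to 4, against 0.715, 0.691, 0.794 and 0.78 CPM for the 45307 clusters listed under 1 gene. The mean log2 ratio of these medians was 0.60 ± 0.046 (SD, n = 4), a 1.52-fold difference in 4 of 4 libraries. The exact two-sided sign-flip test gave p = 0.125, the smallest that 4 libraries allow. The size and direction depended on which clusters were compared. With at least 3 tags in every library, the log2 ratio was only 0.076. The medians were then 4.07 CPM for 867 clusters of 2 or more genes and 3.86 CPM for 28950 clusters of 1 gene. With only the most used cluster of each gene, the log2 ratio was -0.13, with 13.5 CPM for clusters of 2 or more genes and 14.8 CPM for clusters of 1 gene. Restricting both kinds to clusters within 100 bp of a start, a choice made after seeing the data, gave 2.46 CPM and 2.47 CPM.

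Levels differed with position. The median of clusters at 2 or more starts was 6.66, 6.72, 7.80 and 7.27 CPM in libraries 1 to 4, against 2.37, 2.23, 2.61 and 2.68 CPM for the 28768 clusters of 1 gene within 100 bp of its start. This was 2.88-fold higher in 4 of 4 libraries (exact two-sided sign-flip p = 0.125). Clusters at a start of only 1 listed gene had 1.13, 1.14, 1.25 and 1.31 CPM, which was 2.05-fold lower than the same 1-gene clusters in 4 of 4 libraries (exact two-sided sign-flip p = 0.125). Clusters at no start had 0.275, 0.266, 0.34 and 0.39 CPM, against 0.22, 0.212, 0.284 and 0.223 CPM for 1-gene clusters farther than 100 bp from a start. These comparisons by position were chosen after the values were seen. They depended on the minimum level. Among clusters of at least 10 CPM on average, the median was 39.2 CPM at 2 or more starts and 40.4 CPM at 1 start. It was 34.3 CPM for 1-gene clusters near a start, so clusters at 1 start were then higher. At a minimum of 1 CPM they were lower (10.1 against 13.8 CPM). Median widths with no minimum were 89 bp (2 or more starts), 22.5 bp (1 start) and 58 bp (1-gene clusters). The part of width was not tested.

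**Figure D1:**
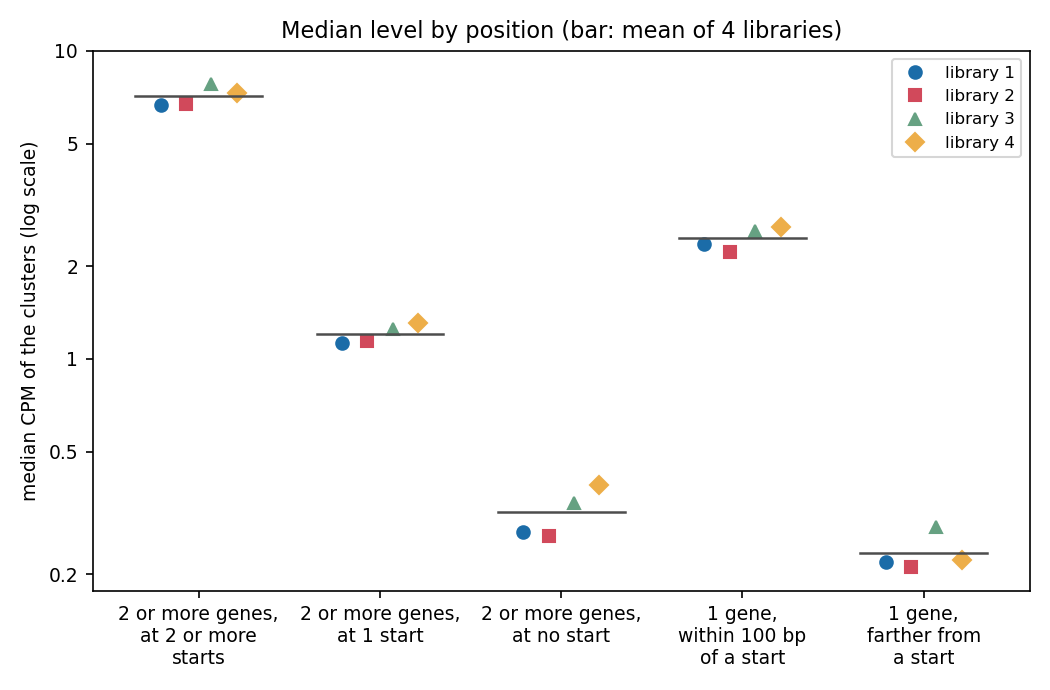
Median CPM (log scale) of clusters by number of listed genes and by position, 1 point per library and a bar at the mean of 4 libraries. The 4 points of clusters at 2 or more starts lie between 6.66 and 7.80 CPM, above the 2.23 to 2.68 CPM of 1-gene clusters at a start.

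The highest of all was a cluster at the start of Neat1, the long noncoding RNA that builds paraspeckles in the nucleus. It had 4590, 4377, 4966 and 4579 CPM in libraries 1 to 4 (mean 4628 ± 246, SD, n = 4). It was listed with 3 entries of the miscellaneous RNA class, Gm27533, Gm27505 and Gm28006, whose starts lay 870, 560 and 270 bp downstream, inside Neat1. Clusters listed under Neat1 and another gene numbered 16, and the other 15 added little, since all 16 summed to 4639 ± 249 CPM. Gas5, a host transcript of small nucleolar RNAs, had the next 2 clusters with 3 or more genes, at 316 ± 22.9 and 183 ± 10.3 CPM. The first lay 265 bp upstream of the nearest Gas5 start and 95 bp upstream of the snoRNA entry Gm22489. The second spanned a Gas5 start. The fourth cluster with 3 or more genes, 129 ± 7.78 CPM, spanned starts of Gm38394 and of both identifiers of Zc3h11a, a zinc finger protein gene.

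Histone symbols marked 46 clusters, with 6767 ± 505 CPM in all (SD, n = 4). Among them, 20 clusters joined a replication-dependent H2B gene (H2bc) with a miRNA entry that has only a predicted name. In the 9 of these at 10 CPM or more, the miRNA started upstream of the cluster in 9 of 9, by 547 to 671 bp (median 623 bp), and the histone start lay within 100 bp. H2bc12 (1065, 964, 882 and 1093 CPM in libraries 1 to 4), H2bc4 (843, 797, 764 and 906 CPM) and H2bc11 (838, 782, 715 and 833 CPM) led this family. H2bc3 followed with 610 ± 37.9 CPM. Library 3 was lowest for each of these 4. The RefSeq windows of 10 promoters with an H2bc symbol all held CCAAT, 5 held the octamer ATTTGCAT and none held GGGCGG. In the H2bc12 sequence above, CCAAT stands near the 5′ end and ATTTGCAT closer to the start.

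A different arrangement joined H2bc18 with Gm42743, a long noncoding RNA. The cluster had 1323, 1264, 1248 and 1552 CPM in libraries 1 to 4 and ended 14 bp before the Gm42743 start and 45 bp before the H2bc18 start. Both genes had 100% of their tags in clusters shared by them. Trim17, a ubiquitin ligase gene, and H2aw, an H2A histone gene, start at 1 base on chromosome 11. Their cluster had 339, 285, 352 and 353 CPM in libraries 1 to 4, and neither gene had a tag elsewhere. H3c3 shared a listing with the pseudogene H2ac5-ps at 328 ± 32.4 CPM. Its cluster lay 76 bp downstream of the H3c3 start and 973 bp downstream of the pseudogene's start.

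**Figure D2:**
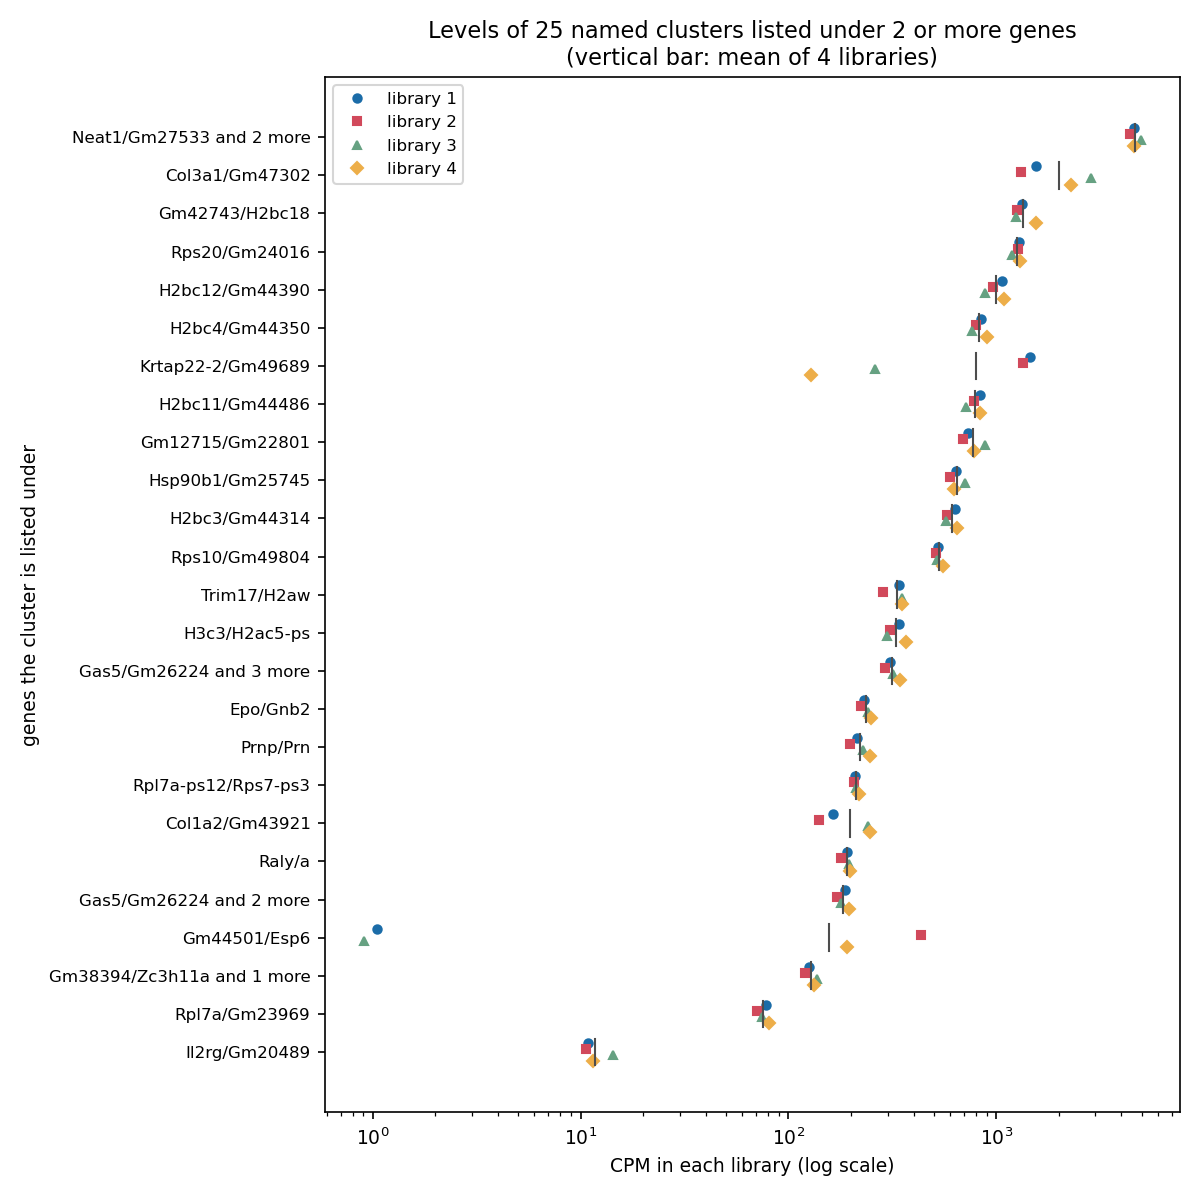
CPM in each of 4 libraries (log scale) for 25 clusters, named by the genes each is listed under, with a vertical bar at the mean. Points overlap closely in most rows; Gm44501/Esp6 runs from 0.908 to 435 CPM and Krtap22-2/Gm49689 from 128 to 1461 CPM.

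Genes of the translation machinery were listed with small nucleolar RNAs (snoRNAs), which guide the modification of other RNAs and are processed from introns of host genes. There were 28 clusters of a ribosomal protein gene or of Rack1 with a snoRNA entry, 3270 ± 127 CPM together. In the 8 of these at 10 CPM or more, the snoRNA started 390 to 905 bp from the cluster, downstream in 7 of 8. Rps20, a protein of the small ribosomal subunit, had 1282, 1275, 1195 and 1306 CPM in libraries 1 to 4, with the snoRNA Gm24016 starting 390 bp downstream. Rack1 (506 ± 56.5 CPM), Rps16 (451 ± 25.4 CPM), Rps12 (416 ± 29.3 CPM) and Rpl7a (75.9 ± 4.56 CPM) were arranged the same way. Each of these clusters spanned the annotated start of the host gene.

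Other miRNA entries were listed with clusters of coding genes and of a pseudogene. Hsp90b1, a chaperone of the endoplasmic reticulum, had 641, 601, 710 and 628 CPM in libraries 1 to 4 in a cluster that also spanned the start of the miRNA entry Gm25745. The processed pseudogene Gm12715 had 773 ± 84.4 CPM and was listed with Gm22801, a miRNA entry 695 bp downstream. Across all coding genes with a miRNA entry there were 126 clusters, 38 of them at 10 CPM or more. In those 38, the miRNA start was upstream of the cluster in 18, inside it in 13 and downstream in 7. Predicted names were common in general, and only 243 of the 1287 clusters had no predicted or clone name.

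Coding genes with different given names shared 165 clusters, from 77 gene pairs. Of these, 44 clusters reached 10 CPM, with a median of 42.3 CPM; 33 of the 44 were at starts of both genes, 10 at a start of 1 gene and 1 at neither. Over all coding pairs, predicted names included, 211 clusters were at both starts. The nearest starts of their 2 genes were a median of 12 bp apart and at most 170 bp, with 98 pairs of starts within 10 bp and 35 on the same base. A level in such a cluster is the level of a start and cannot be divided between the genes.

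Epo and Gnb2 show what this does to a gene's value. Epo encodes erythropoietin, a hormone of red cell production made mainly in kidney and liver, and Gnb2 a G protein beta subunit used widely. The shared cluster (chr5:137533164-137533328, minus strand) had 231, 223, 241 and 249 CPM in libraries 1 to 4 (mean 236 ± 11.3, SD, n = 4) and spanned annotated starts of both. It held 100% of the tags listed under Epo, which had no other tag, and 97.9 ± 0.314% of those of Gnb2. The RefSeq start in the sequence above is that of Gnb2. The 236 CPM listed for Epo are thus the same tags as those of Gnb2, and these data hold no tag that belongs to Epo alone.

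Prnp, the prion protein gene, shared a cluster with Prn at 213, 197, 228 and 247 CPM in libraries 1 to 4, and neither had a tag elsewhere. Raly, which encodes an RNA-binding protein, and a, the agouti gene of coat colour, were listed together at 190 ± 8.53 CPM. All Raly tags lay in shared clusters, against 85.9 ± 2.58% of the tags of a. A pair of processed pseudogenes on chromosome X, Rpl7a-ps12 and Rps7-ps3, shared 211 ± 5.77 CPM. Reads of processed pseudogenes can also fit their parent genes, and the sources used here do not say how such reads were counted.

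Several pairs were picked out after their values were seen, for the roles of their genes. Rnase4 and Ang are ribonuclease genes that share a promoter and differ in their coding exon; their cluster had 53.2, 51.5, 77.5 and 71.1 CPM in libraries 1 to 4. All tags listed under either gene were in shared clusters. Taf9, of the general transcription factor TFIID, and Ak6, an adenylate kinase, were listed with 86.7 ± 4.52 CPM, at a start of Ak6 and 187 bp before one of Taf9. Il4i1, an amino acid oxidase, and Nup62, a nuclear pore protein, shared 62.0 ± 2.84 CPM at starts of both. Fgfr2, a fibroblast growth factor receptor of epithelia, and Ctbp2, a corepressor, shared 36.4 ± 3.32 CPM. That was 100% of the tags of Ctbp2 with its other shared clusters, against 18.4 ± 0.540% of those of Fgfr2.

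Further families were also picked out after their values were seen. Joining segments of T cell receptor genes gave 22 clusters with 22.9 ± 2.66 CPM in all. The leading one, listed under 7 joining segments Trbj2 and the diversity segment Trbd2, had 14.5, 11.9, 14.4 and 11.4 CPM in libraries 1 to 4. On chromosome 1, 54 clusters were listed only under unprocessed pseudogenes, 7 in number, such as Gm10925 and Gm28437. They summed to 329 ± 24.8 CPM, the highest being 50.8 ± 4.91 CPM. Copies of near-identical sequence can take each other's reads, and these levels are uncertain for that reason.

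Of 217 skin and housekeeping genes on 10 lists that the table holds, 16 (7.37%) were in shared clusters, against 1140 of all 17819 gene symbols (6.40%). The lists for basal keratinocytes, skeletal muscle and vessels had none. There were 16 clusters for ribosome and translation genes, 4 for immune cells, 3 for fibroblasts and matrix, 2 each for hair follicle and for mitochondria and metabolism, and 1 each for the cornified epidermis and the glands. Those at 10 CPM or more were listed under Col3a1, Col1a2, Krtap22-2, Esp6, Il2rg and Rpl7a. Il2rg, the common gamma chain of cytokine receptors, had 10.8, 10.6, 14.4 and 11.4 CPM in libraries 1 to 4 and was listed with Gm20489, whose start lay 768 bp upstream.

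Spread between libraries was tested with limma over all 25530 distinct clusters of at least 1 CPM on average, of which 141 (0.552%) passed at an adjusted p under 0.05. Of 664 tested clusters listed under 2 or more genes, 2 passed, a share no higher than in the whole table. Unadjusted p was under 0.05 in 28 of them (4.22%), against 6.69% of all. The median SD of log2(CPM + 1) was 0.14 for clusters of 2 or more genes and 0.14 for clusters of 1 gene. In 7 of 331 clusters of 10 CPM or more (2.11%), the highest library was at least 2 times the lowest, against 430 of 10579 (4.06%) for clusters of 1 gene. A cluster that did not pass is not shown to be equal between libraries.

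Gm44501/Esp6 varied most. Esp6 (ENSMUSG00000092043.2) belongs to the exocrine gland-secreting peptides, a family known in mouse for pheromones in tears, and Gm44501 (ENSMUSG00000090897.2) is a coding gene with a predicted name that starts at the same annotated base. The cluster (chr17:40561453-40561554, plus strand) had 1.05, 435, 0.908 and 190 CPM in libraries 1 to 4. Libraries 2 and 4, whose sample codes end in the same letter, were high and libraries 1 and 3 near 1 CPM, a range of 479-fold. The SD of log2(CPM + 1) passed the limma test (adjusted p = 0.00145). The other 21 genes of the gland list, of which 16 had tags, summed to 59.0, 48558, 86.2 and 11298 CPM in the same order, a sum that a few abundant genes carry. Their part in the result was not tested, and in bulk tissue fewer cells of a type and less RNA per cell cannot be told apart.

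Krtap22-2/Gm49689 was the other. Krtap22-2 (ENSMUSG00000095992.2) encodes a keratin-associated protein of the hair shaft, and Gm49689 is a processed pseudogene whose start lies 519 bp downstream. The cluster (chr16:89010751-89010768, minus strand) spanned the Krtap22-2 start and had 1461, 1342, 261 and 128 CPM in libraries 1 to 4. Libraries 1 and 2 did not overlap with libraries 3 and 4, a division that follows the first part of the sample code. The test gave an adjusted p of 0.0115 (limma), and 0.120 when library 4 was left out, when 21 clusters of the whole table passed. The other 26 genes of the hair follicle list, 25 with tags, summed to 20440, 18604, 8019 and 9431 CPM. Their part in the difference was not tested. Its sequence above holds TATAAA shortly before the capitals.

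The collagens varied less. Col3a1, a fibrillar collagen chain of the dermis, had 1549, 1319, 2867 and 2279 CPM in libraries 1 to 4 in a cluster of 2004 ± 706 CPM (chr1:45311513-45311726, plus strand) that also spanned the start of the miRNA entry Gm47302. Col1a2, a chain of type I collagen, had 163, 140, 242 and 248 CPM in a cluster listed with Gm43921, an entry still awaiting experimental evidence (class TEC) 272 bp downstream. Libraries 3 and 4 were higher for each. The limma test was not passed by Col3a1 (adjusted p = 0.40) or Col1a2 (adjusted p = 0.498). The other 18 genes of the fibroblast and matrix list, all with tags, summed to 2991, 2735, 4581 and 4289 CPM, and their part was not tested. Shared clusters held 99.7 ± 0.0101% of Col3a1 tags and 98.2 ± 0.320% of Col1a2 tags.

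**Figure D3:**
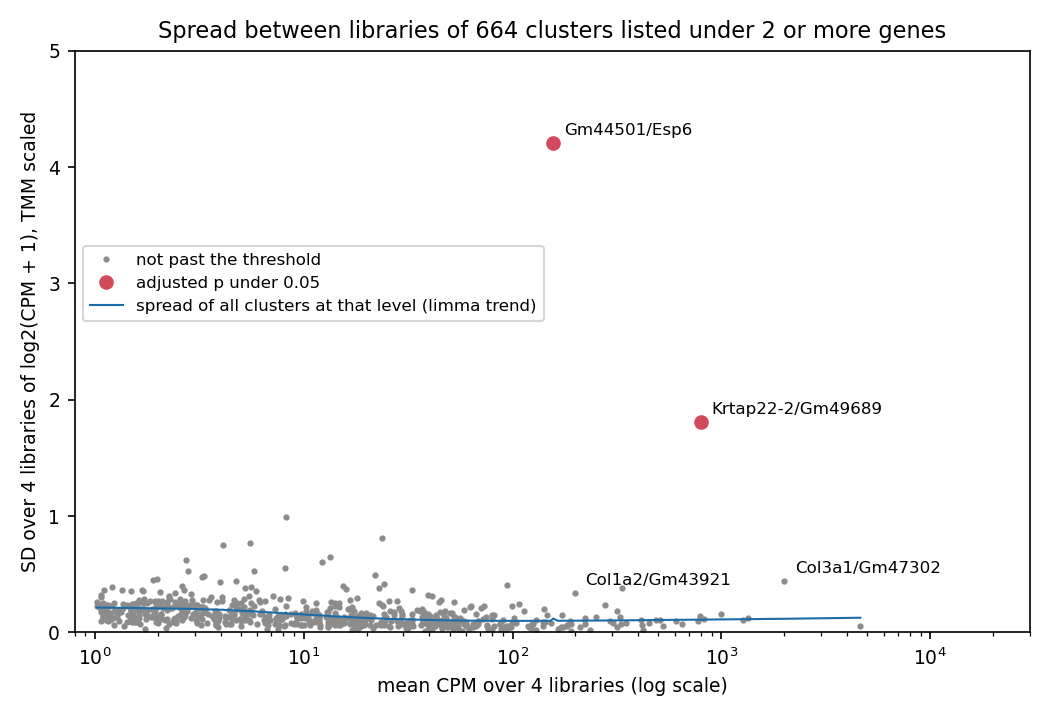
SD over 4 libraries of log2(CPM + 1) after TMM scaling, against mean CPM (log scale), for 664 clusters listed under 2 or more genes, with the limma trend of all clusters as a line. The 2 clusters past the threshold, Gm44501/Esp6 and Krtap22-2/Gm49689, stand above all others.

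**Figure D4:**
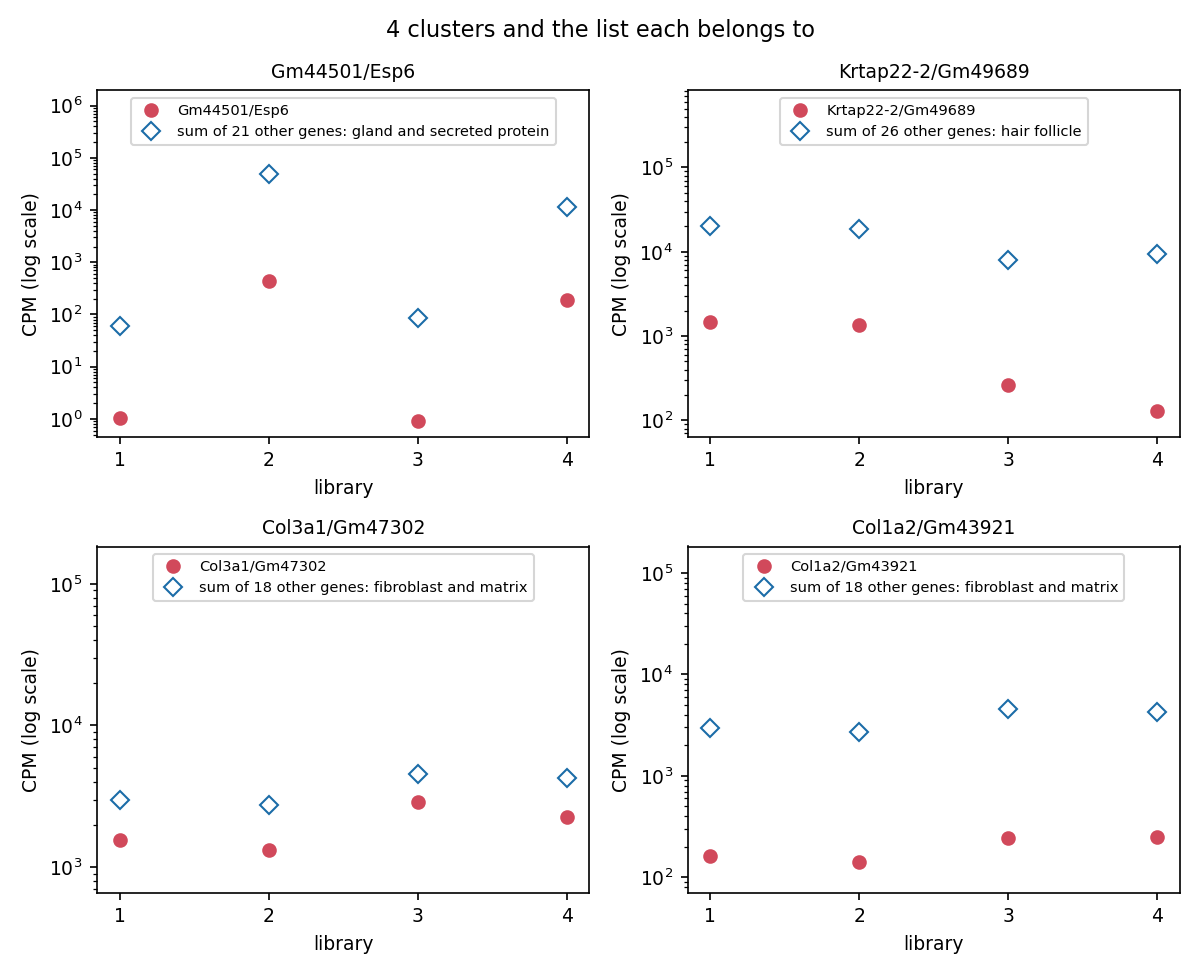
CPM (log scale) in libraries 1 to 4 of 4 clusters (filled circles) and of the summed other genes of the list each belongs to (open diamonds). Gm44501/Esp6 and the sum of the gland list are high in libraries 2 and 4, and Krtap22-2/Gm49689 and the sum of the hair list in libraries 1 and 2.

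For most genes listed with a shared cluster, the shared clusters were all there was. These are 1162 of the 17849 genes in the whole table. Of the 1157 of them with tags, 875 had every tag in clusters listed under 2 or more genes and 974 had at least 90%. Only 105 lay between 10% and 90%, 78 had at most 10%, and 5 further genes had no tag. Among 725 gene pairs that share a cluster, both genes had a cluster of their own in 30, 1 gene had one in 235, and neither did in 460. An own cluster is one listed under that gene alone. Of the 460 pairs, 95 had a cluster listed under 1 gene of the pair together with a further gene, and the other 365 had all their clusters in common.

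Where both genes had own clusters, the tags in them were compared within each library. Of the 29 pairs with at least 10 tags on average over both genes together, 29 passed the test (100%; limma, adjusted p under 0.05), 21 with the gene on top of the ratio higher and 8 with it lower. A pair could reach that minimum through 1 abundant gene, so this count is a description of the pairs kept and supports nothing further. The p-values of single pairs below likewise add nothing to the levels printed with them. Each gene had at least 10 tags on average in 18 pairs, a restriction chosen after seeing the data, and 18 of those passed, 10 with the gene on top higher and 8 with it lower. A given name stands on top of a predicted one and otherwise the order is alphabetical. An exact sign-flip test over 4 libraries cannot go below p = 0.125 and called 0.

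Filaggrin (Flg), a barrier protein of the cornified layer, had 368, 330, 482 and 490 CPM in its own clusters in libraries 1 to 4, and its partner Rplp0-ps1 had no tag of its own in any library. Against the limit of 3 tags per library that a count of 0 allows, or 12 tags over the 4 libraries, Flg was at least 2516-fold higher. Their shared cluster spanned the Flg start and had only 7.80 ± 1.15 CPM, or 1.85 ± 0.191% of the Flg tags. It was nevertheless the only source of tags for Rplp0-ps1.

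Ybx3, a cold-shock domain protein, had 800 ± 45.2 CPM of its own and Gm22362 had 0.665 ± 0.223 CPM (log2 ratio 10.24, SE 0.22, limma adjusted p = 2.37e-07). Klk13, a kallikrein protease, had 3339, 3430, 5420 and 3713 own tags in libraries 1 to 4, and Gm44814 had only 2, 3, 5 and 2. The ratio of their summed tags was 1325, with an exact 95% interval of 758 to 2565 that covers counting error only. Malat1, an abundant nuclear long noncoding RNA, had 11721 ± 287 CPM over 67 own clusters. Gm27694 had 50.5 ± 3.75 CPM over 35 own clusters (log2 ratio 7.86), and its listing does not show that these are its starts. With only the most used own cluster of each gene, the log2 ratio of Malat1/Gm27694 was 10.08. The first gene was higher in 4 of 4 libraries in each of these pairs.

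In the opposite direction, the pseudogene Ndufa12-ps had 0.679 ± 0.212 CPM of its own and Rabgef1, a regulator of endosome traffic, had 82.3 ± 6.12 CPM (log2 ratio -6.92, SE 0.23, limma adjusted p = 1.26e-06). B3galt4, a glycosyltransferase, had 3.37 ± 0.152 CPM and Rps18, of the small ribosomal subunit, had 204 ± 12.3 CPM (log2 ratio -5.91). Gm11407 had 3.06 ± 0.473 CPM and Gm11410 had 70.3 ± 4.76 CPM. Parp10, an ADP-ribosyltransferase, had 22.8 ± 6.07 CPM and Plec, the linker protein of hemidesmosomes, had 306 ± 29.97 CPM (log2 ratio -3.78). The first gene was lower in 4 of 4 libraries in each. Kif22/Maz turned round when only the most used own cluster of each gene was taken, with a log2 ratio of -0.94 over all own clusters and 0.17 over the most used (limma adjusted p = 0.261).

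**Figure D5:**
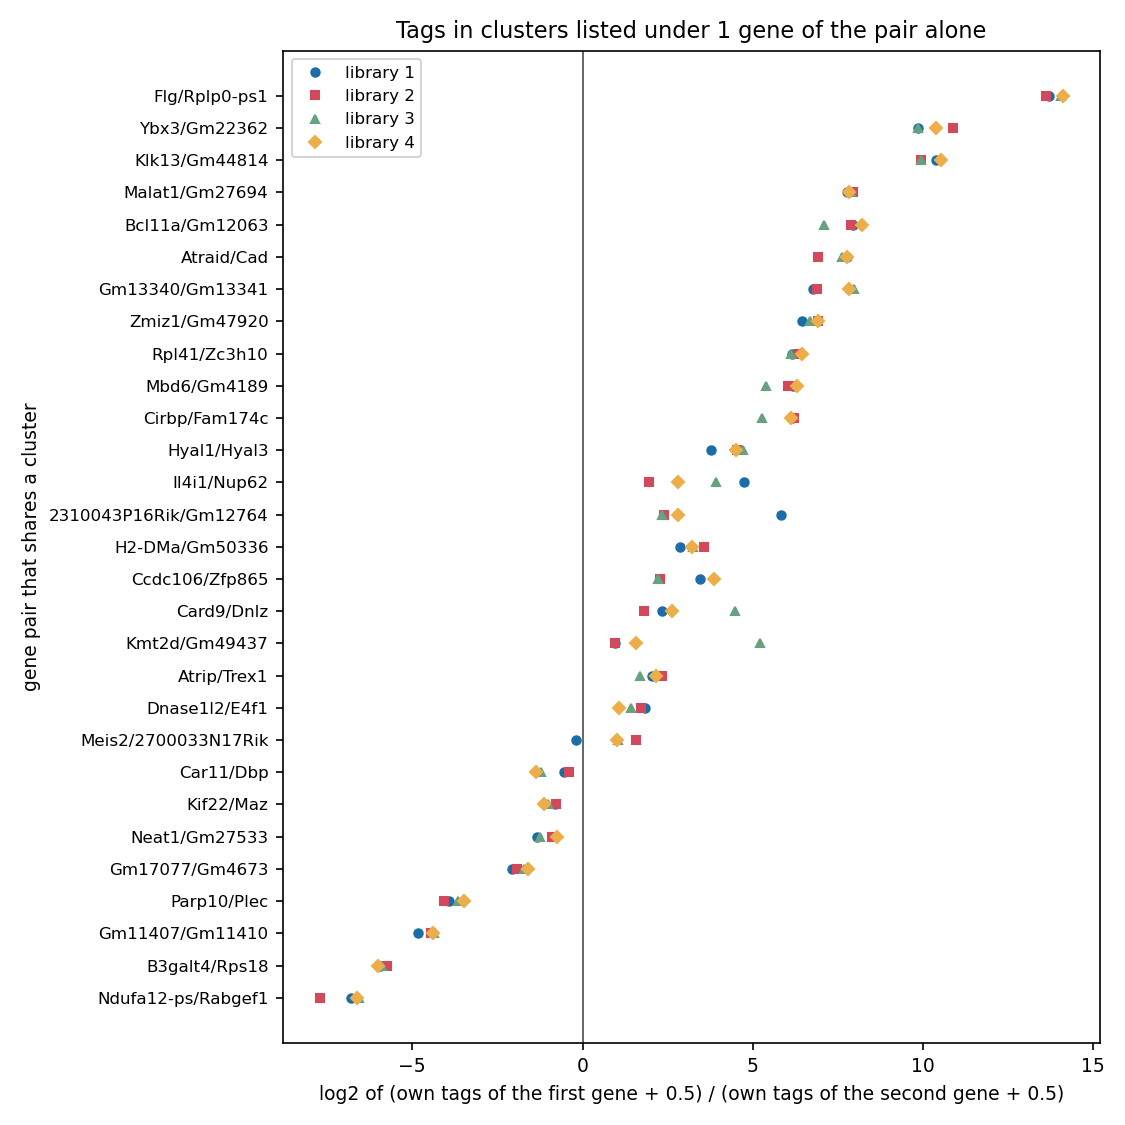
Log2 ratio of tags in clusters listed under the first gene alone over those listed under the second gene alone, with 0.5 tags added, for 29 gene pairs; 1 point per library. The 4 points of a pair lie on 1 side of 0 except in Meis2/2700033N17Rik, where 3 of 4 lie above 0.

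RefSeq promoter windows were found within 100 bp for 440 of the 1287 clusters, 343 distinct windows of 300 bases. Motifs were searched in the 250 bases before the start on either strand, except TATAAA, which was searched on the strand of the gene between 45 and 15 bases before the start. GGGCGG stood in 57.4% of the 343 windows, against 32.7% of all 32851 RefSeq windows. CCAAT stood in 42.6%, against 33.8%. ATTTGCAT stood in 2.62%, against 1.60%, and TATAAA in 2.62%, against 2.14%. By position, TATAAA stood in 1 of 188 windows at 2 or more starts and in 8 of 158 windows at 1 start. The windows of all RefSeq promoters include genes with no tag in skin, so these shares are a description and were not tested.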

How the data were processed

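The authors deposited CPM (tags scaled to a common library total) per cluster of tag starts for 4 CAGE libraries, with 1 entry for each listed gene. Per the labels' protocols, column-purified total RNA went into a commercial CAGE kit; BWA, HISAT2 and mm9 are named, without versions, in the submitters' processing notes. The sources used here do not say how tags were joined into clusters and named. The coordinates fit GRCm38, not mm9. The deposited CPM gave whole tags back for 100% of values, within 0.02 tags.

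Members and lists were chosen with earlier results of these data known. Distances used GENCODE M21 starts (gene identifiers matched without version) and a limit of 100 bp. Spread was tested on log2(CPM + 1), TMM scaled, with limma 3.58.1 in R 4.3.3 (intercept only, robust trended prior, upper F test, Benjamini-Hochberg); edgeR 4.0.16 quasi-likelihood, fitted to the recovered tags, called 156 of 25530 clusters and DESeq2 1.42.0 marked 414. Own-cluster ratios used limma with 0.5 tags added. Both tests were tested on simulated data, where the test of spread missed most clusters unless the fold difference in 1 library was very large. Named clusters were the 12 highest, the 6 highest with only given names, the 4 highest with 3 or more genes, those past the test of spread and list members of at least 10 CPM (up to 3 per list); named pairs were the 4 most positive and 4 most negative ratios. Python 3.11.15 with pandas 2.3.3 was used for counts.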

Additional observations from a re-analysis of the deposited data

How the results depend on the processing

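No paired analysis was possible because all 4 libraries belong to 1 group. With starts within 500 bp in place of 100 bp, 831 clusters in place of 356 were at starts of 2 or more genes. The difference in median level turned from a log2 ratio of 0.60 to -0.13 when each gene kept only its most used cluster, and to -0.0066 with clusters within 100 bp of a start, an alternative chosen after seeing the data. It was 0.58 to 0.62 when 1 library was left out, and 0.076 with at least 3 tags in every library. The 2 clusters past the test of spread became 18 with no minimum level and 4 by DESeq2, and 1 to 2 when 1 library was left out. Over all clusters, 141 became 1203 with no minimum and 414 by DESeq2, and 21 to 167 when 1 library was left out, 21 being without library 4. Without that library Krtap22-2/Gm49689 did not pass, and in the others Gm44501/Esp6 and Krtap22-2/Gm49689 both passed. The 29 pair ratios became 0 by the exact sign-flip test, whose smallest p is 0.125; they became 18 of 18 where each gene had at least 10 tags (chosen after seeing the data). Otherwise limma called 24 to 30, with 24 of 24 at a minimum of 50 tags, 27 with the libraries of 1 code part averaged and 27 to 28 when 1 library was left out. The causes were not tested. Below about 3 tags per library (0.159 to 0.170 CPM) a cluster cannot be told from none, and 867 of 1287 clusters passed this limit in every library.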

Other observations

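Of the immune genes on the lists, Cd3e, a chain of the T cell receptor complex, had 1.49, 1.59, 4.31 and 3.79 CPM in libraries 1 to 4, in a cluster listed with Gm48720. Itgam, an integrin of myeloid cells, had 4.35, 3.29, 5.90 and 5.63 CPM in a cluster that also spanned a start of Gm49368. Both were higher in libraries 3 and 4, and neither passed the test of spread (limma adjusted p = 0.713 for Cd3e). Hoxd3 and Hoxd4, neighbouring genes of body patterning, shared a cluster at starts of both with 3.85, 3.29, 9.30 and 6.58 CPM (limma adjusted p = 0.620). Kit, on the immune list but outside the shared clusters, went the other way from Cd3e and Itgam. Its level was higher in libraries 1 and 2 than in libraries 3 and 4. Cd3e, Itgam, Kit, Hoxd3 and Hoxd4 were chosen after their values were seen. Among the 664 tested clusters listed under 2 or more genes, library 3 was highest in 194 and library 4 in 243, by CPM without TMM scaling. Of the 24866 other clusters of at least 1 CPM, library 3 was highest in 8826 (35.5%) and library 4 in 8013 (32.2%). A highest level in library 3 or 4 was thus common in both sets and not particular to shared clusters.

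Some listings were 1 gene counted under 2 identifiers: 45 clusters repeated a symbol, with 680 ± 18.5 CPM in all (SD, n = 4). Gcat, an enzyme of threonine breakdown, led the pairs with 122, 116, 98.4 and 92.9 CPM in libraries 1 to 4, higher in libraries 1 and 2, without passing the test of spread (limma adjusted p = 0.744).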
